A study of Ovis aries with 6 samples.

Results

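Interleukin 5 (IL5), interleukin 7 (IL7), interleukin 10 (IL10), the interleukin 12 subunit IL12A and the chemokine receptor CCR3 were followed in body side skin of 2 sheep breeds, the small tail Han sheep and the Aohan fine wool sheep. They make up 5 of the 476 genes that could be named on the array by a RefSeq messenger RNA accession, and are read by 9 of its 15008 probes. The probes of IL7, IL12A and CCR3 were taken by probe name, and those of IL5 and IL10 were all probes that carry a sheep RefSeq accession of the gene. IL5, IL10, IL12A and CCR3 have 2 probes each and IL7 has 1. The genes were selected on their scaled log2 signals in the 2 breeds on these same arrays, so their changes are given as a description and no test is drawn from them.

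Each breed was represented by 3 animals of 12 months, 1 ram and 2 ewes, with 1 array per animal. Total RNA came from full-thickness skin of about 1 cm2 and was labelled with the dye Cy3. Which array came from the ram of a breed is not given in the labels. All 3 sheep of a breed had the same father, and the headers record 1 scan time for each breed. Sire family and scan time therefore cannot be told apart from breed. The p-values below measure the spread among these few related animals.

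IL5 drives the growth and survival of eosinophils and is made mainly by type 2 T helper cells and innate lymphoid cells. CCR3 is the receptor through which eosinophils follow the eotaxin chemokines into tissue, and it is also carried by basophils, mast cells and some T cells. IL7 is made by stromal and epithelial cells, keratinocytes of the hair follicle among them, and keeps lymphocytes alive. IL10 dampens inflammation. IL12A pairs with IL12B to form interleukin 12, which directs T cells and natural killer cells to make interferon gamma, and pairs with EBI3 to form a regulatory cytokine.

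Signals are given as log2 of the background-subtracted Cy3 intensity after subtracting the 75th percentile of the same array. A value of 0 is thus the level that 75% of the probes did not exceed, and a change is the mean of Aohan minus the mean of small tail Han. That percentile was an intensity of 2309, 1837 and 1747 for small tail Han and of 1103, 2048 and 1131 for Aohan replicates 1, 2 and 3. Between 10774 and 13418 probes were well above background on an array. Aohan replicate 1 stood apart, with the lowest percentile and the largest median coefficient of variation over probes printed 5 times, 18.3%, against 5.18% to 10.1% on the other arrays. The skin label was checked on the hair follicle keratins KRT25, KRT27 and KRT31 and the dermal proteoglycan DCN, which lay 6.28 to 8.57 log2 units above the percentile on all 6 arrays.

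The array held 9 probes of the 5 genes, and 7 of them were well above background on all 6 arrays. The remaining IL5 probe was well above background on none and was not tested, and the IL7 probe was well above background on 3. In the limma fit over all 12481 tested probes, 15.2% passed at an adjusted p of 0.05, 7.57% with a higher and 7.6% with a lower signal in Aohan. Of the 8 tested probes of the 5 genes 6 passed, 4 of them higher and 2 lower in Aohan, and in these same 6 the breeds did not overlap, as in 34.2% of all tested probes. Nothing is read from these counts, because this contrast chose the genes. In bulk skin, fewer cells of a type and less RNA per cell cannot be told apart.

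IL5 was higher in Aohan skin on 1 of its 2 probes, and the other gave no measurable signal. The signal of A_70_P039442 was -3.26, -2.59 and -2.71 in small tail Han replicates 1, 2 and 3. It was -1.70, -1.89 and -1.99 in Aohan replicates 1, 2 and 3. The lowest Aohan sheep lay above the highest small tail Han sheep, and small tail Han replicate 1 was the lowest of all. The means were -1.86 ± 0.15 (SD, n = 3) and -2.85 ± 0.36 (SD, n = 3), a change of 0.99 (SE 0.21), or 1.99-fold. Before scaling, the intensity was 240, 305 and 267 in small tail Han and 339, 552 and 285 in Aohan. Those unscaled values overlapped, since Aohan replicate 3 fell below small tail Han replicate 2, and differed by 0.48 on the log2 scale. The median unscaled difference over all tested probes was -0.49, against which the unscaled differences here and below are to be set.

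The other IL5 probe, A_70_P039441, was printed 5 times on each array and gave no measurable signal in either breed. Its mean signal was -8.71, -7.36 and -8.20 in small tail Han and -7.17, -9.15 and -7.79 in Aohan, all below the lowest signal well above background on the same array. Its intensities averaged 3.60 to 11.2. On small tail Han replicate 2 all 5 spots sat at 11.2, the lowest intensity recorded on that array. A single spot, on small tail Han replicate 1, was well above background with an intensity of 140, and it carried an outlier mark and was left out. The direction of IL5 thus rests on 1 probe with 1 spot per array.

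IL7 was read near the detection limit, and its scaled signal was higher in Aohan skin. The signal of A_70_P030221 was -8.22, -7.36 and -5.47 in small tail Han replicates 1, 2 and 3. It was -5.05, -4.55 and -4.65 in Aohan replicates 1, 2 and 3. The Aohan values lay close together, whereas the small tail Han values were widely spread and all lower. The probe was well above background only on small tail Han replicate 3 and Aohan replicates 2 and 3. On small tail Han replicate 2 it sat at the array's lowest intensity, 11.2, which 1858 spots of that array shared. Before scaling, the intensity was 7.73, 11.2 and 39.3 in small tail Han and 33.4, 87.7 and 45.2 in Aohan. Those unscaled values overlapped, since Aohan replicate 1 fell below small tail Han replicate 3, and differed by 1.76 on the log2 scale.

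The size of the IL7 difference followed the handling of those dim arrays. The fitted change was 2.27 (SE 0.63), from means of -4.75 ± 0.27 and -7.02 ± 1.41 (SD, n = 3 each). Over the arrays that measured the probe, the 2 Aohan sheep averaged -4.60 and the 1 small tail Han sheep was at -5.47, which leaves a difference of 0.88. With normexp background correction, which models the local background and here added an offset of 50 that shrinks the log ratio of a dim probe, the change was 0.35 (SE 0.47), within its error. The fitted change was 1.67 to 3.05 as single arrays were left out, the highest without small tail Han replicate 3, and in 5 of these 6 fits it no longer passed. The size of the IL7 difference is therefore not settled by these arrays. Its direction rests in part on values that were not well above background.

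**Figure D1:**
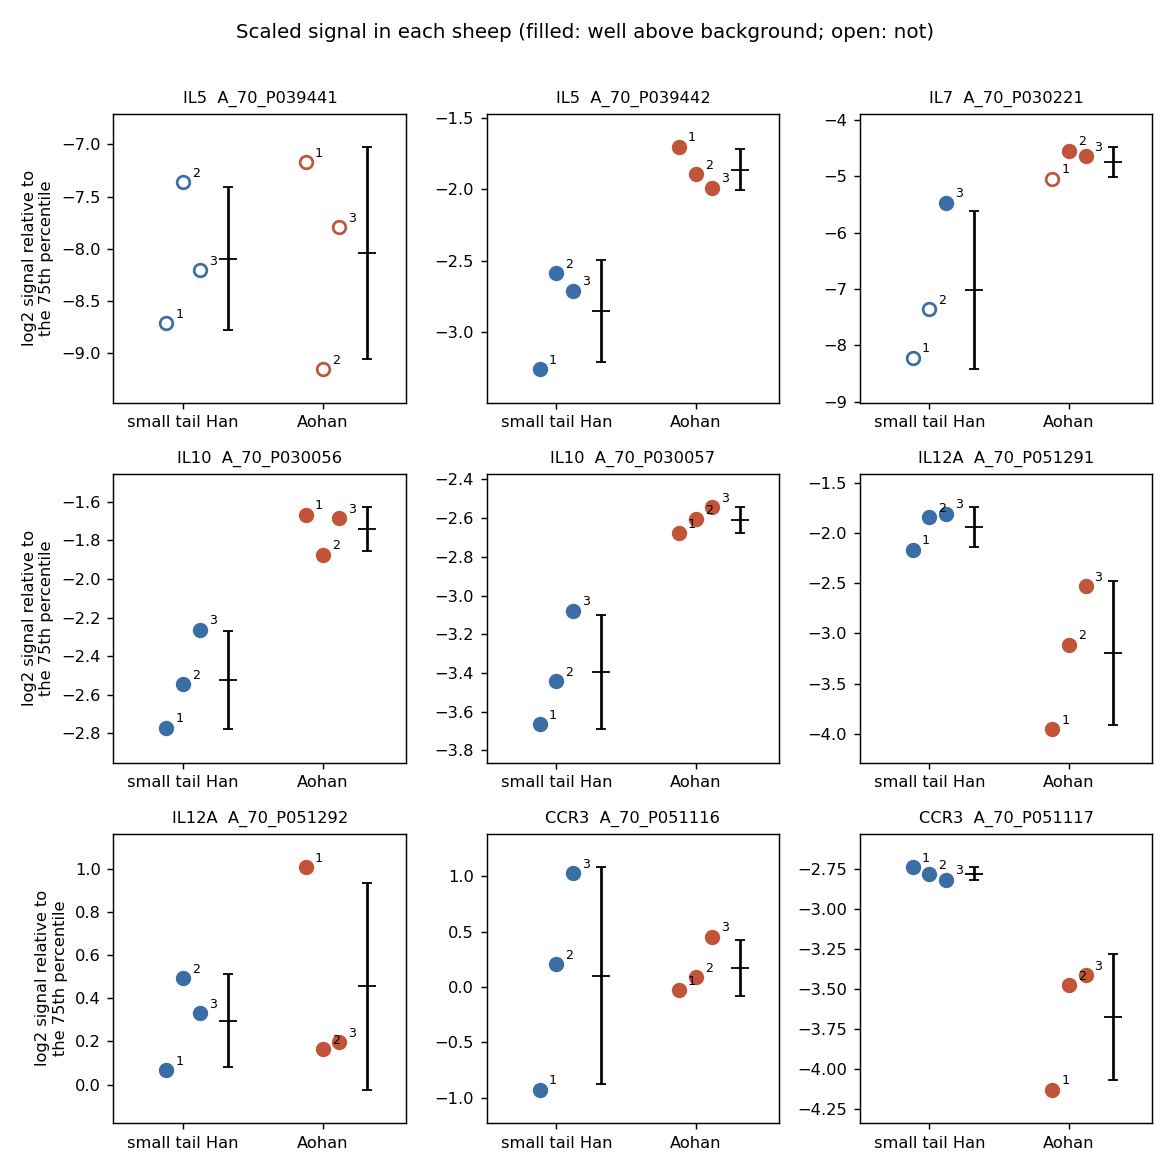
Signal of the 9 probes of IL5, IL7, IL10, IL12A and CCR3 in each of the 6 sheep, as log2 of intensity relative to the 75th percentile of the array, with points for animals and a line for the breed mean. The Aohan points lie above those of small tail Han for IL10 on both probes, from -1.87 to -1.67 against -2.77 to -2.26 on the repeated probe, and below them for 1 probe of IL12A and 1 of CCR3.

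IL10 was higher in Aohan skin on both of its probes, by the same amount. The probe printed 5 times per array, A_70_P030056, gave -2.77, -2.54 and -2.26 in small tail Han replicates 1, 2 and 3. The Aohan sheep gave -1.67, -1.87 and -1.68 on that probe. The breeds did not overlap, and the Aohan animals were closer together than the small tail Han animals. The change was 0.79 (SE 0.18), or 1.72-fold. As single arrays were left out it was 0.66 to 0.92, and it passed in 4 of these fits and not in 2. The SD among repeat spots within an array was between 0.0096 and 0.15 on the log2 scale.

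The second IL10 probe, A_70_P030057, gave -3.67, -3.44 and -3.08 in small tail Han and -2.68, -2.61 and -2.54 in Aohan. Small tail Han replicate 1 was the lowest and replicate 3 the highest of its breed on both probes. The change was again 0.79 (SE 0.20). As single arrays were left out it was 0.65 to 0.94, and it passed in 2 of these fits and not in 4. With normexp background correction it was 0.62 (SE 0.24) and did not pass. Within each array the first probe exceeded the second by 0.87 ± 0.05 in small tail Han and 0.87 ± 0.14 in Aohan (SD, n = 3 each), and the 2 changes differed by -0.00093. The unscaled intensities of the breeds overlapped on both probes, at 315 to 364 against 348 to 559 on the first and 169 to 207 against 172 to 337 on the second. The unscaled difference was 0.27 on each probe.

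**Figure D2:**
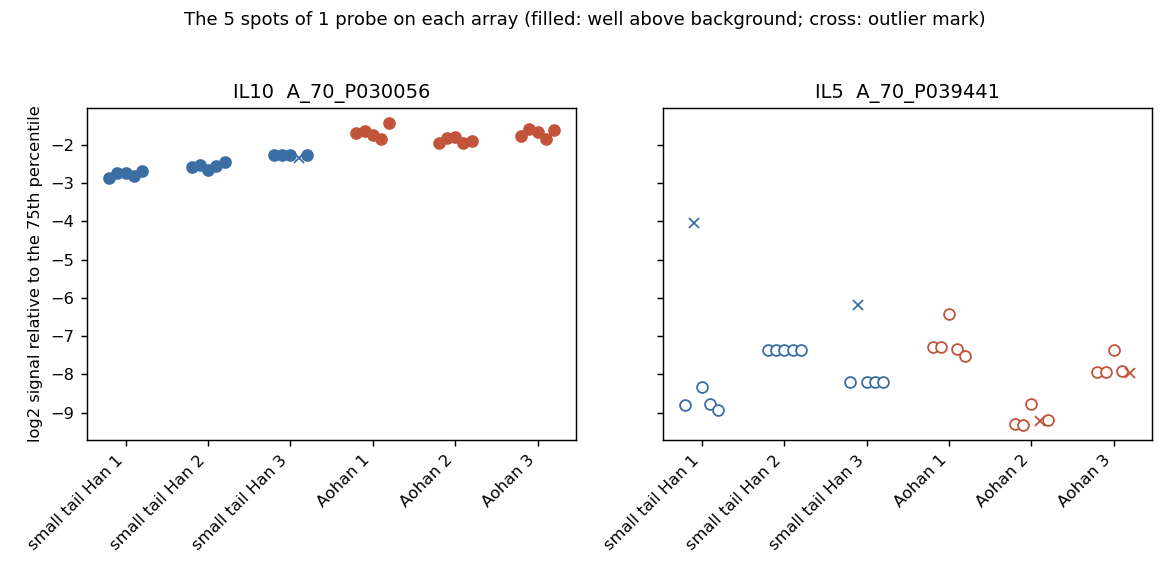
Single spots of the 2 probes printed 5 times per array, IL10 A_70_P030056 and IL5 A_70_P039441, as log2 signal on the scale of each array's 75th percentile, with crosses for spots that carried an outlier mark. The IL10 spots of an array cluster with an SD of at most 0.15, whereas the IL5 spots lie near the bottom of the scale in both breeds, the highest being a marked spot on small tail Han replicate 1.

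IL12A was lower in Aohan skin on 1 probe and not on the other. The signal of A_70_P051291 was -2.17, -1.84 and -1.81 in small tail Han replicates 1, 2 and 3. It was -3.96, -3.11 and -2.53 in Aohan replicates 1, 2 and 3. The 3 Aohan sheep were all lower and more widely spread, with replicate 1 farthest down. The change was -1.26 (SE 0.33), a 2.40-fold lower signal. The intensities were 515, 513 and 500 in small tail Han and 70.9, 237 and 196 in Aohan, so the breeds were also separate before scaling, with a difference of -1.77. Without Aohan replicate 1 the change was -0.88. It was -1.60 to -0.88 as single arrays were left out, and passed in 3 of these fits and not in the other 3.

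The second IL12A probe, A_70_P051292, gave 0.067, 0.49 and 0.33 in small tail Han and 1.01, 0.16 and 0.20 in Aohan. Here Aohan replicate 1 was the highest of the 6 sheep, and the breeds overlapped. The change was 0.16 (SE 0.24), with a 95% interval from -0.39 to 0.71. Aohan replicate 1 was therefore at opposite ends of the 2 probes of the same gene.

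CCR3 showed the same kind of split. The signal of A_70_P051117 was -2.74, -2.78 and -2.82 in the 3 small tail Han sheep, which were nearly identical. It was -4.13, -3.48 and -3.41 in Aohan replicates 1, 2 and 3, all lower. The change was -0.89 (SE 0.23), a 1.86-fold lower signal. As single arrays were left out it was -1.02 to -0.67. It no longer passed in 5 of these fits and passed in 1. With normexp background correction it was -0.60 (SE 0.27) and did not pass. The intensities of 346, 267 and 248 against 63.2, 184 and 106 did not overlap either, and the unscaled difference was -1.40.

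On the other CCR3 probe, A_70_P051116, the signal was -0.93, 0.20 and 1.03 in small tail Han and -0.029, 0.089 and 0.45 in Aohan. The spread among small tail Han sheep covered the whole Aohan range. The change was 0.069 (SE 0.41), with a 95% interval from -0.87 to 1.01.

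**Figure D3:**
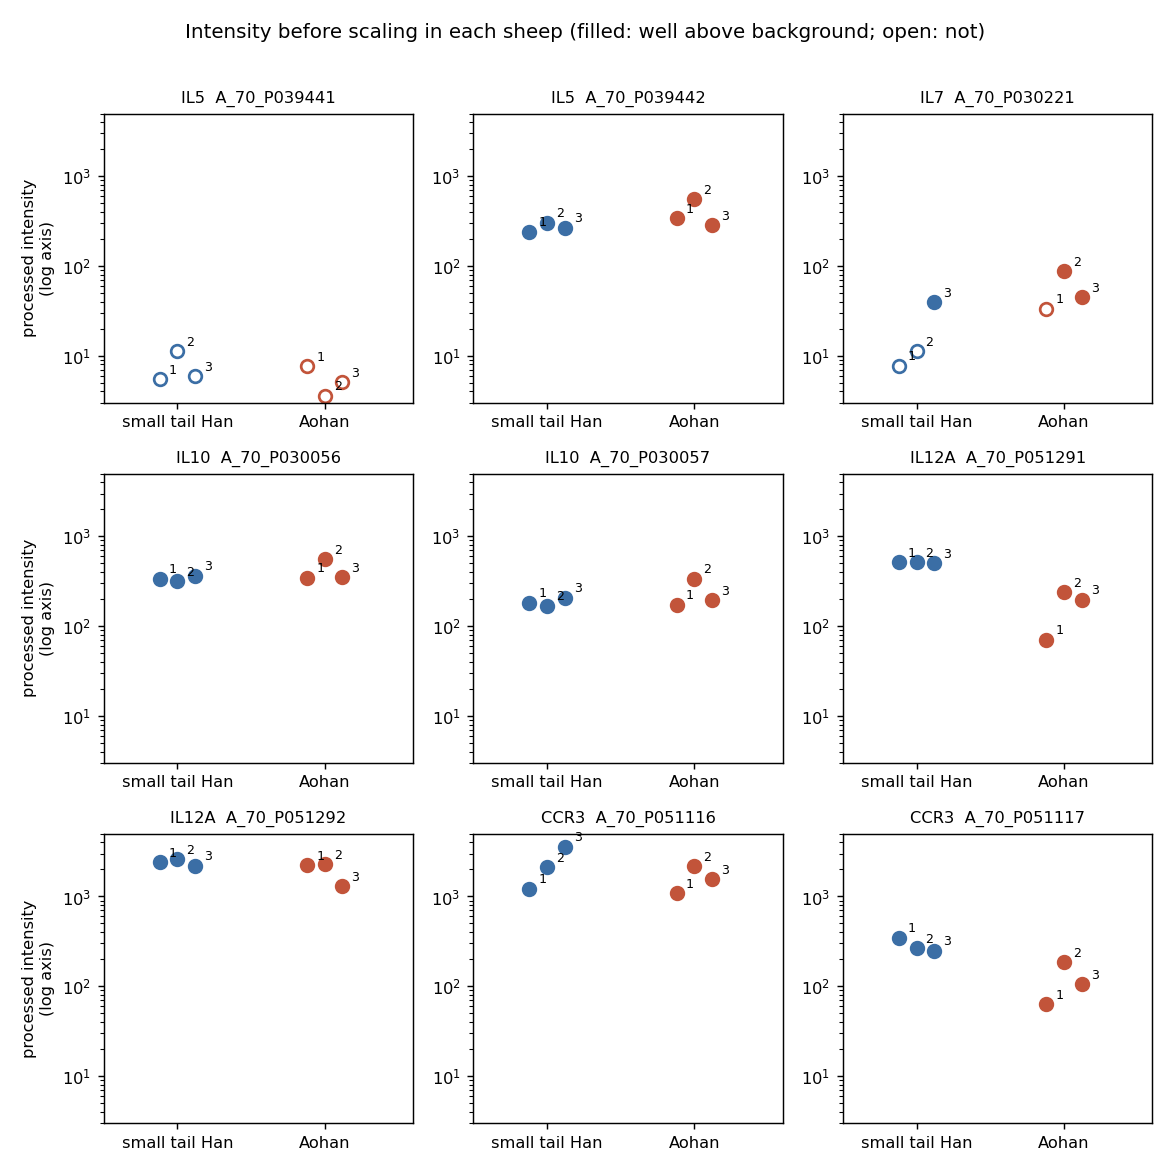
Unscaled Cy3 intensity of the same probes in each sheep on a log axis, with points for animals. Before scaling the breeds are separate only for the IL12A probe at 500 to 515 against 70.9 to 237 and the CCR3 probe at 248 to 346 against 63.2 to 184, both lower in Aohan.

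The distance between the 2 probes of a gene, taken within each array, is free of the scaling between arrays. For IL12A, A_70_P051291 minus A_70_P051292 was -2.23, -2.33 and -2.14 in small tail Han and -4.97, -3.27 and -2.72 in Aohan. The distance was nearly constant in small tail Han and wider in all 3 Aohan sheep. The 2 probes' changes differed by -1.42, and by -0.77 without Aohan replicate 1, which moved the value more than any other array.

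For CCR3, A_70_P051117 minus A_70_P051116 was -1.81, -2.99 and -3.85 in small tail Han and -4.10, -3.57 and -3.87 in Aohan. Small tail Han replicate 3 lay inside the Aohan range, so the breeds overlapped. The difference of the changes was -0.96, from -1.44 to -0.43 as single arrays were left out and -0.49 with normexp background correction. It was -0.43 without small tail Han replicate 1. The breeds were thus separate for the IL12A pair and overlapped for the CCR3 pair.

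How often 2 probes of a gene part company on this array was counted over the 176 named genes with exactly 2 tested probes. Both probes passed in the same direction in 23 genes, 1 of the 2 passed in 24, neither passed in 129, and no gene had probes that passed in opposite directions. The median size of the difference between the 2 changes was 0.26 and its 90th percentile was 0.70. The IL12A difference was matched or exceeded in 4 of the 176 genes, itself included, and that of CCR3 in 11. The IL10 pair had the smallest difference of the 176. IL12A, CCR3 and IL10 were chosen on these same changes and the other genes were not, so nothing is read from these ranks.

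**Figure D4:**
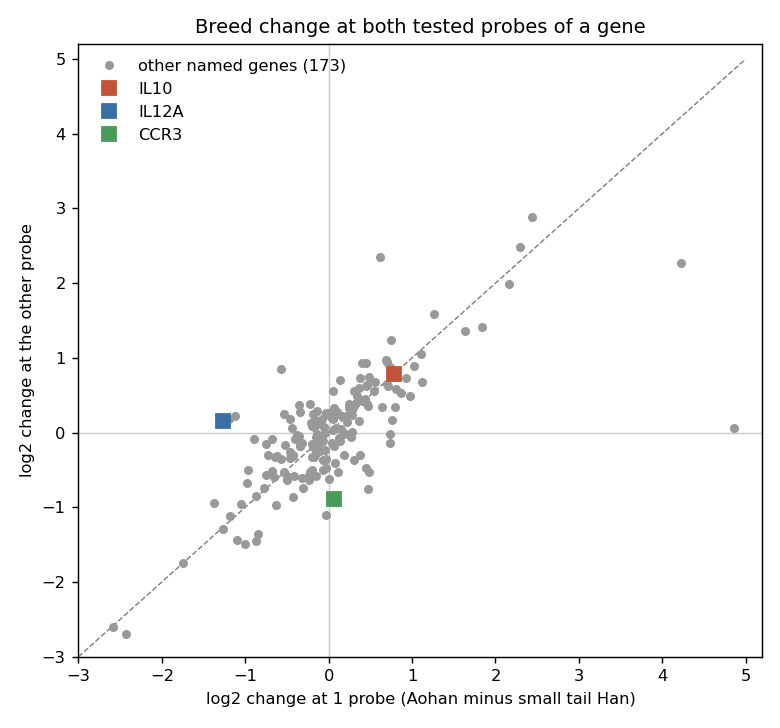
Log2 change, Aohan minus small tail Han, on 1 probe against the other for the 176 named genes with exactly 2 tested probes, with IL10, IL12A and CCR3 marked and the line of equal change drawn. IL10 lies on the line at 0.79 on both axes, while IL12A and CCR3 lie off it, by 1.42 and 0.96.

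Other genes of these pathways and of the cells that use them were taken from lists of 195 genes, of which 49 had a named probe and 41 were tested, each at its tested probe of highest mean signal. The 4 skin genes above are among them. In limma's fit 7 of the 41 rose and 1 fell in Aohan, while over all tested probes 7.57% passed as higher and 7.6% as lower. The median change was 0.28, against 0.025 over all tested probes and 0.059 over the 425 tested named genes. The lists were chosen with earlier results of these data known, so nothing is read from this count. Without scaling between arrays 6 list genes passed, and the calls of IL6, TGFB1, CD3E, CD3D, TPSB2 and ITGB2 given below were lost while their directions held. The ligands of CCR3, the receptors of the member cytokines, and the eosinophil, natural killer cell and B cell markers in the lists had no named probe and were not analysed here. No listed marker of eosinophils, the cells on which IL5 and CCR3 act, could thus be followed.

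Among the type 2 cytokines that accompany IL5, neither tested gene passed in limma, at an unadjusted p of 0.05, or in the methods' t-test. CSF2, a growth factor of granulocytes and macrophages, changed by 0.69 (SE 0.31, adjusted p = 0.178), and IL3, a growth factor of basophils and mast cells, by 0.28 (adjusted p = 0.297). IL4 and IL13, the defining cytokines of a type 2 response, were too dim to be tested. The only other tested chemokine receptor, CCR10, which guides T cells to skin, changed by 0.36 (adjusted p = 0.268).

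Among the common gamma chain cytokines, to which IL7 belongs, IL2, the T cell growth factor, was the only other one tested, with a change of 0.022 (adjusted p = 0.962). Beside IL10, the anti-inflammatory growth factor TGFB1 rose by 0.82 (SE 0.18, adjusted p = 0.0192). The IL12 family and type 1 cytokines, which act with IL12A, had 5 tested genes, of which 0 passed in limma, 0 at an unadjusted p of 0.05 and 0 in the methods' t-test. IL12B, the partner of IL12A, was well above background on 2 Aohan arrays and 1 small tail Han array and changed by 0.68 (SE 0.40, adjusted p = 0.306). Interferon gamma (IFNG), the product of cells that respond to interleukin 12, changed by -0.42 (adjusted p = 0.252), TNF by 0.54 (adjusted p = 0.177) and IL18, which acts together with interleukin 12, by -0.082. The other IL18 probe, which is not in these counts, changed by -0.40 (adjusted p = 0.124). The TNF change was 0.81 (adjusted p = 0.0397) without small tail Han replicate 3. The TGFB1 call was lost without small tail Han replicate 2, at 0.80 (adjusted p = 0.0830), or replicate 3, at 0.74 (adjusted p = 0.0842).

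The proinflammatory list had 2 genes that rose and 1 that fell of 6 tested. IL6 rose by 2.41 (SE 0.44, adjusted p = 0.00876) and the neutrophil chemokine CXCL8 by 2.27 (adjusted p = 0.000160), with 4.23 (adjusted p = 5.36e-05) on its other probe, while CXCL1, another neutrophil chemokine, fell by 0.78 (adjusted p = 0.0118). The interferon-induced chemokine CXCL10 changed by 1.28 (adjusted p = 0.0639). The IL6 probe was well above background on 3 Aohan and 2 small tail Han arrays. It read -6.34, -7.31 and -5.68 in small tail Han replicates 1, 2 and 3, so the size of its change includes dim values. The IL6 call was lost with normexp background correction, at 0.76 (adjusted p = 0.240). That of CXCL1 was lost without small tail Han replicate 2 or 3, at -0.74 and -0.73 (adjusted p = 0.0659 and 0.0605), and CXCL10 reached 1.83 (adjusted p = 0.00152) without replicate 3. CXCL10 also passed with normexp, at 0.94 (adjusted p = 0.00228), and with the replicate block (adjusted p = 0.0449). CXCL8 passed in every setting run.

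In the JAK-STAT list, the route by which these cytokine receptors signal, 0 of 3 genes passed in limma, 1 had an unadjusted p under 0.05 and 0 passed in the methods' t-test. The survival gene BCL2L1 changed by 0.98 (adjusted p = 0.119), MYC by -0.22 and STAT5A, which transmits the IL5 and IL7 signals, by 0.073. Without small tail Han replicate 1 the BCL2L1 change was 1.41 (adjusted p = 0.0127). On their other probes BCL2L1 changed by 0.49, MYC by -0.53 and STAT5A by -0.41, and none of these passed. The receptor chain IL2RA, the only tested gene of its list, changed by -0.078.

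Of the tested markers of T cells, cells that can make IL5 and IL10 and respond to IL7, 2 of 6 rose and 4 did not pass. The T cell receptor chains CD3E and CD3D rose by 1.11 (SE 0.23, adjusted p = 0.0135) and 0.92 (SE 0.24, adjusted p = 0.0362), and a second CD3D probe changed by 0.73 (adjusted p = 0.0880). Those that did not pass were LCK at 0.34 (adjusted p = 0.285), CD247 at 0.37 (adjusted p = 0.432), CD40LG at 0.14 (adjusted p = 0.766) and CTLA4 at -0.022 (adjusted p = 0.963). The other probes of CD40LG and CTLA4 changed by -0.19 and 0.74 (adjusted p = 0.762 and 0.199). CD4 and CD28 were too dim to be tested. The summed level of the 6 genes was 2.82 to 4.98 times the array's 75th percentile in small tail Han and 6.68 to 8.10 times in Aohan, without overlap, and most of it came from CD3E and CD3D. The 4 genes that did not pass summed to 0.265 to 0.304 times in small tail Han and 0.322 to 0.355 times in Aohan. The CD3E call was lost without small tail Han replicate 2, at 1.03 (adjusted p = 0.0633). The CD3D call held only without small tail Han replicate 3 among the fits that left out an array, and its change ranged from 0.69 to 1.18. It was also lost without the intensity trend (adjusted p = 0.0653) and with the replicate block (adjusted p = 0.0576). The part of T cells in the higher IL5, IL7 and IL10 signals was not tested.

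Among markers of other cells that carry CCR3 or answer to IL10, 1 of 3 mast cell genes and 1 of 9 macrophage and dendritic cell genes rose. The mast cell protease TPSB2 rose by 0.75 (adjusted p = 0.0334), with 0.49 (adjusted p = 0.147) on its second probe. The IgE receptor chain FCER1A changed by 0.14, and by 0.70 (adjusted p = 0.231) on its second probe. The chymase CMA1 changed by -0.60 (adjusted p = 0.409) and was well above background on only 1 Aohan and 2 small tail Han arrays. The summed level of the 3 mast cell genes was 0.949 to 1.49 in small tail Han and 1.39 to 1.63 in Aohan. The leukocyte integrin ITGB2 rose by 0.95 (adjusted p = 0.0108). The lipid antigen presenter CD1D changed by -0.84 (adjusted p = 0.0502) and fell by 1.36 (adjusted p = 0.00138) on its other probe, while FCGR1A changed by 0.55 (adjusted p = 0.106) and ITGAM by 0.88 (adjusted p = 0.377). The summed level of the 9 genes overlapped, at 2.80 to 3.44 and 3.03 to 3.98. The TPSB2 call was lost without small tail Han replicate 2, at 0.59 (adjusted p = 0.141), without each Aohan array, at 0.66 to 0.86, and with normexp, at 0.29 (adjusted p = 0.473). It was also lost without the intensity trend and with the replicate block. The ITGB2 call was lost without small tail Han replicate 2, at 0.91 (adjusted p = 0.0556), and CD1D, close to the threshold, passed without small tail Han replicate 1, at -0.94, or Aohan replicate 1, at -0.98, and also with normexp (-0.67, adjusted p = 0.0181), the series matrix values, the filter for all arrays, the replicate block, median scaling and no scaling. The part of these cells in the IL10 and CCR3 signals was not tested.

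**Figure D5:**
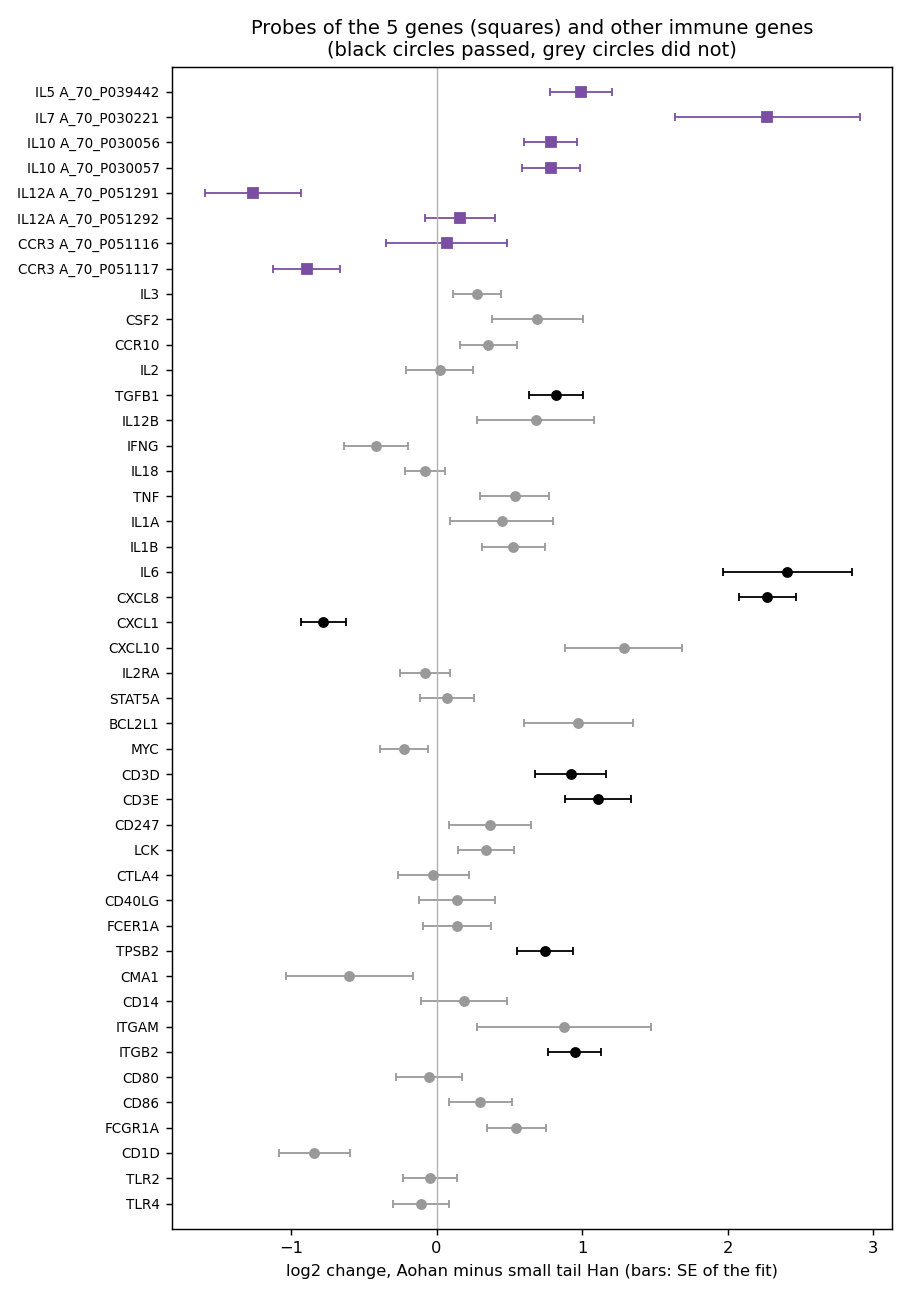
Log2 change, Aohan minus small tail Han, with its SE for the tested probes of the 5 genes, as squares, and the tested genes of the immune lists, as circles that are black where the gene passed in limma. CXCL8 at 2.27 and IL6 at 2.41 lie far to the right, the IL7 point includes 3 arrays on which its probe was not well above background, and the lower probes of IL12A at -1.26 and CCR3 at -0.89 farthest to the left.

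The named genes whose signals ran most like each cytokine over the 6 arrays were listed by Pearson's r, as a description over animals that share sire, scan time and array scaling within a breed. They were the highest among 499 candidate probes, and r was not tested. IL10 ran closest to the T cell gene CD3E, with an r of 0.98, and 0.90 after each breed was centred on its mean. The sugar transferase gene GGTA1 and the death receptor gene FAS followed at 0.97 each, and at 0.79 and 0.78 centred. IL5 ran closest to the lysophosphatidic acid receptor gene LPAR1, the galectin gene LGALS1 and the epidermal transcription factor gene TFAP2A, with an r of 0.98 each and 0.89, 0.89 and 0.96 centred. Each r belongs to a single probe of the named gene. LPAR1 changed by 0.49 on that probe and by -0.52 on its other one, and GGTA1 by 2.35 and 0.62. In the same order TFAP2A changed by 0.76 and 0.17, and LGALS1 by 0.45 and 0.93. The probes of CD3E were closer, at 1.11 and 1.05. IL7 ran closest to OVAR, the lymphocyte chemokine XCL1 and LOC443441, at 0.99, 0.98 and 0.96, with 0.98, 0.95 and 0.89 centred. The IL7 probe was well above background on only 2 Aohan arrays and 1 small tail Han array. Its r therefore rests in part on values that were not measured.

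For the genes with a split between probes, likeness was taken at the probe of higher mean signal, on which neither gene passed. IL12A ran closest to the lens crystallin gene CRYAA, the milk casein gene CSN2 and the costimulatory gene CD80, at 0.95, 0.93 and 0.93, with 0.96, 0.94 and 0.99 centred. CCR3 ran closest to IL2, the bombesin receptor gene BRS3 and the kinase gene ARAF, at 0.92, 0.89 and 0.88, with 0.92, 0.95 and 0.90 centred. These values also belong to single probes. On that probe and on the other one, CRYAA changed by 0.25 and -0.18, CSN2 by 0.060 and 4.86, and BRS3 by 0.30 and -0.36.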

How the data were processed

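Gene expression was measured on 1-colour Agilent sheep arrays. Per the file headers, the authors extracted background-subtracted Cy3 intensity values per spot with Agilent Feature Extraction 10.5.1.1, with no normalization between arrays. The log2 values of the deposited series matrix, normalized by the authors by a method not given in the sources used here, served as an alternative. The scale of a probe depends on its sequence, so distances between probes of a gene and summed levels of a list serve only to compare arrays.

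Controls and outlier-marked spots were left out, log2 was taken, spots of a probe were averaged and the 75th percentile of the array was subtracted. A probe counted as well above background where over 50% of its spots were. Probes that reached this on 3 or more arrays and had 2 or more values in each breed were tested (12481 of 15008) with limma 3.58.1 in R 4.3.3, with empirical Bayes moderation, an intensity trend and Benjamini-Hochberg adjustment at 0.05, two-sided. The number of arrays limits the precision. The fit was tested on simulated data. The methods' t-test, other normalizations, filters, a replicate block and leaving out each array were alternatives.

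Symbols of 734 of 758 probes with a RefSeq mRNA accession were found in the reference annotation of ARS-UI_Ramb_v3.0, and 2 list genes, CMA1 and KRT31, through its synonyms. From each list, genes that passed and up to 4 of smallest p were named, and for each member the 3 named genes of highest Pearson's r. The T cell markers CD40LG and CTLA4 were named beside these and were not followed over the alternatives. The members and the lists were chosen with earlier results of these data known, and 1 gene of the lists is not reported here. Protein data were not used here.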

Additional observations from a re-analysis of the deposited data

How the results depend on the processing

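Of the 8 tested probes of the 5 genes, 6 passed. The count was 3 with normexp background correction, 2 without scaling between arrays, and 1 to 4 as single arrays were left out, lowest without small tail Han replicate 2. After Benjamini-Hochberg adjustment 0 passed in the methods' t-test, against 5 at an unadjusted p of 0.05. With the replicate number as a block 3 probes passed, and over all probes the count moved from 1893 to 1234. The same-numbered sheep deviated from their breed means with correlations of -0.22, -0.37 and 0.28, and not every sheep correlated best with its own number. With so few animals per breed these values cannot settle whether the numbers pair the animals. Over all probes 789 to 2248 passed as single arrays were left out (789 without small tail Han replicate 2), and 712 and 3234 passed in the methods' t-test with and without adjustment. Of the 41 list genes 8 passed, 2 to 9 as arrays were left out (2 without small tail Han replicate 2) and 1 in the methods' t-test after adjustment. Median scaling and no scaling were added after seeing the data. Without scaling the median change was -0.49, and 83 probes passed as higher and 2123 as lower, 3.76% higher against 49.9%. The cause of these shifts was not tested.

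Changes that turned sign passed in neither setting. Without scaling they were -0.35 for IL12A A_70_P051292, -0.44 for CCR3 A_70_P051116, -0.16 for CCR10, -0.14 for CD247, -0.37 for FCER1A, -0.49 for IL2, -0.23 for IL3, -0.17 for LCK, -0.34 for KRT31 and -0.44 for STAT5A. With normexp they were -0.10 for CCR3 A_70_P051116, 0.18 for IL18, 0.0012 for IL2RA and 0.040 for MYC. With quantile normalization they were 0.0033 for IL18, -0.027 for IL2 and 0.040 for KRT27. IL2 was -0.021 with median scaling, and IL2 and KRT27 were -0.038 and 0.044 in the series matrix. As single arrays were left out, IL12A A_70_P051292 ranged from -0.12 to 0.31, CCR3 A_70_P051116 from -0.45 to 0.53, IL2 from -0.11 to 0.17, STAT5A from -0.027 to 0.18, FCER1A from -0.064 to 0.41, DCN from -0.24 to 0.17, KRT25 from -0.28 to 0.25 and KRT27 from -0.26 to 0.20. The 6 passing probes of the 5 genes kept their direction in every setting run. Nothing is read from this, because this contrast chose the genes. On these probes the breeds did not overlap, so leaving out an array could not turn the sign. Settings that changed only the filter or the test kept the same change.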
